A study of Homo sapiens with 6 samples.

Results

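The sirtuins SIRT1 to SIRT7 are the NAD+-dependent protein deacylases of human cells, and all 7 were found by gene name among the 58735 features of the count table. Each had reads in all 6 libraries and passed the expression filter. The study compared BE(2)-C cells, a line established from a neuroblastoma, with and without a shortage of ACSS2, the nuclear and cytosolic enzyme that makes acetyl-CoA from acetate. The tested cells (shACSS2, labelled with the genotype "ACSS2 deficiency", n = 3 libraries) were infected with lentivirus carrying a short hairpin against ACSS2. The other cells (NS, labelled wild type, n = 3 libraries) carried a non-silencing hairpin, and puromycin selection was used on both lines. Sample titles write the knockdown as siACSS2 and the treatment text names a shNgBR line once, so the nature of the reagent rests on that treatment text. Each group is a single selected line, and the labels do not say whether its libraries came from separate cultures, so a p-value here reflects the spread of these libraries alone, which may be technical.

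A sirtuin removes an acetyl or other acyl group from a lysine, cleaving NAD+ and releasing nicotinamide in the reaction. SIRT1, SIRT6 and SIRT7 work mainly in the nucleus, SIRT2 in the cytoplasm and SIRT3, SIRT4 and SIRT5 in mitochondria. Acetyl-CoA synthetases are among their substrates: deacetylation by SIRT1 activates ACSS2, and deacetylation by SIRT3 activates its mitochondrial relative ACSS1.

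Libraries held 16617885 to 18133801 counts in shACSS2 and 17073662 to 20831599 counts in NS. ACSS2 stood at 75, 84 and 110 counts in shACSS2, against 366, 387 and 438 counts in NS (−1.94 in log2, SE 0.145, adjusted p = 1.95e-06 by edgeR). The labelled cell type was only partly borne out by its markers. PHOX2A and TH had 0 counts in every library, where 3 counts would be 0.144 to 0.181 CPM (counts scaled to library size; counting error only), while GATA3 stood at 19.0 to 23.1 CPM. MYCN, the oncogene amplified in this line, stood at 0.421 to 2.12 CPM. The 11 neuroblastoma markers used summed to 41.7 to 49.4 CPM in shACSS2 and 41.3 to 46.2 CPM in NS. The 6 markers of embryonic kidney summed to 131 to 153 CPM in shACSS2 and 148 to 159 CPM in NS, and each averaged at least 5 CPM. Markers of Schwann cells and leukocytes summed to at most 1.14 and 0.771 CPM, and those of fibroblasts to 26.9 to 37.3 CPM in shACSS2 and 25.2 to 28.5 CPM in NS, most of it COL1A1, with COL1A2 at 0 counts. The part of these markers in the results was not tested. In bulk RNA, less transcript per cell and fewer expressing cells cannot be told apart.

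Among shACSS2 libraries, replicate 1 stood apart by base composition. Over all genes tested, its deviation from the group mean had a Spearman coefficient of −0.60 with transcript GC content, against 0.47 and 0.39 for shACSS2 replicates 2 and 3 and −0.09 to 0.11 for the NS libraries. Results on the sirtuins are therefore also given without it.

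No sirtuin changed past the test when all 6 libraries were used. Of the 7 genes, 0 rose and 0 fell at a Benjamini-Hochberg adjusted p of 0.05 in edgeR's quasi-likelihood test, against a background of 17.1% of the 16210 genes tested (7.48% higher and 9.64% lower). At an unadjusted p of 0.05 the count was 3 (SIRT2, SIRT4 and SIRT7, all toward higher), where the background was 32.7% (15.9% higher). That count was 1 without NS replicate 1 (SIRT7) or shACSS2 replicate 2 (SIRT4). It was 5 without shACSS2 replicate 1, with SIRT2, SIRT4, SIRT6 and SIRT7 toward higher and SIRT1 toward lower. The share of all genes at this unadjusted threshold was not computed for these omissions. At the adjusted threshold, 23.5% of all genes were called without shACSS2 replicate 1. DESeq2 called 1 sirtuin, SIRT2 (higher), where it called 18.5% of all genes (8.78% higher and 9.73% lower). Voom in limma called 0 sirtuins, where it called 17.1% of all genes (7.45% higher and 9.64% lower). In SIRT2, SIRT4 and SIRT7 all 3 shACSS2 libraries lay above all 3 NS libraries, and 36.3% of all genes had groups that did not overlap (17.6% with shACSS2 above). The median log2 fold change of the 7 was 0.24, with 5 positive and 2 negative values, against 0.00 over all genes tested. The median of the 7 was 0.16 without shACSS2 replicate 2 and 0.32 without shACSS2 replicate 1.

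**Figure D1:**
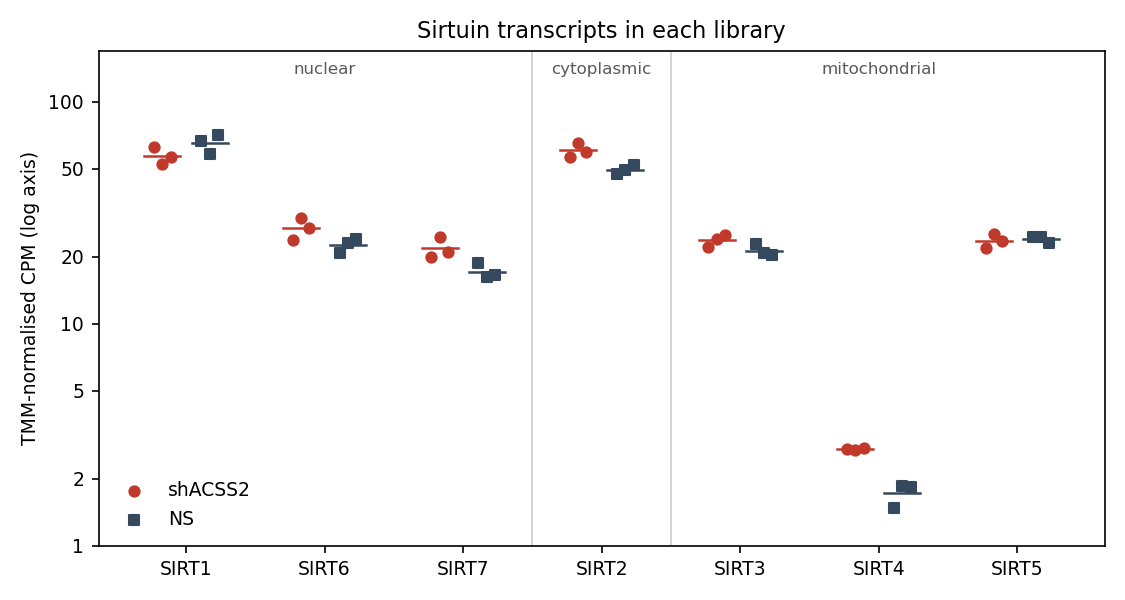
Normalised level of each sirtuin in each library, in TMM-scaled CPM on a log axis, with red circles for shACSS2, dark squares for NS and lines at the means of 3 libraries. Groups are apart for SIRT7, SIRT2 and SIRT4, and SIRT4 lies far under the other members at 1.48 to 2.74 CPM.

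SIRT1 is the nuclear deacetylase of histones, p53, FOXO factors and ACSS2, and was the only nuclear member with a negative fold change. Its gene (ENSG00000096717) lies on chromosome 10 at 67884669 to 67918390, plus strand, in GRCh38 coordinates. It had 62.7, 52.3 and 56.6 CPM in shACSS2, against 67.0, 58.3 and 71.3 CPM in NS. Replicate 1 of shACSS2 lay inside the NS range, and the others lay below it. In log2 terms the fold change was −0.20 (SE 0.109; edgeR adjusted p = 0.23), which is a fold of 0.873 with a 95% interval of 0.744 to 1.03.

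SIRT6 deacetylates histone H3 at telomeres, at sites of DNA damage and at glycolytic genes. It lies on chromosome 19 at 4174109 to 4182604, minus strand (ENSG00000077463). It had 23.8, 30.0 and 26.9 CPM in shACSS2, against 20.9, 23.2 and 24.1 CPM in NS, where only shACSS2 replicate 1 overlapped the NS libraries. The log2 fold change was 0.24 (SE 0.121; edgeR adjusted p = 0.18), a fold of 1.18 (95% interval 0.989 to 1.41).

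SIRT7 is a deacetylase of histone H3 that is enriched in the nucleolus and promotes transcription of ribosomal RNA genes. It lies on chromosome 17 at 81911939 to 81921323, minus strand (ENSG00000187531). It had 19.99, 24.6 and 21.001 CPM in shACSS2, against 18.7, 16.3 and 16.6 CPM in NS. The groups did not overlap, and the lowest shACSS2 library and the highest NS library were close to each other. Its fold change in log2 was 0.35 (SE 0.126; edgeR adjusted p = 0.0678), a fold of 1.27 (95% interval 1.06 to 1.53).

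SIRT2, a deacetylase of alpha-tubulin and of metabolic enzymes, is mostly cytoplasmic. It lies on chromosome 19 at 38878555 to 38899862, minus strand (ENSG00000068903). It had 56.4, 65.3 and 59.5 CPM in shACSS2, against 47.4, 49.3 and 51.9 CPM in NS. All shACSS2 libraries lay above all NS libraries. Its log2 fold change was 0.28 (SE 0.101; edgeR adjusted p = 0.0626), the smallest adjusted p of the 7, and the fold was 1.22 (95% interval 1.05 to 1.41).

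Of the mitochondrial members, SIRT3 is the main deacetylase of the matrix. It lies on chromosome 11 at 215458 to 236931, minus strand (ENSG00000142082). It had 22.2, 24.1 and 25.1 CPM in shACSS2, against 22.9, 20.9 and 20.4 CPM in NS, and the groups overlapped. In log2 terms the fold change was 0.16 (SE 0.115; edgeR adjusted p = 0.367), a fold of 1.12 (95% interval 0.942 to 1.32).

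SIRT4, which represses glutamate dehydrogenase and the pyruvate dehydrogenase complex, was the scarcest member. It lies on chromosome 12 at 120302316 to 120313249, plus strand (ENSG00000089163). It had 44, 44 and 49 counts in shACSS2, against 26, 35 and 40 counts in NS. Scaled to library size these were 2.74, 2.69 and 2.74 CPM in shACSS2, against 1.48, 1.85 and 1.84 CPM in NS, so the groups were apart and the shACSS2 libraries nearly equal. The log2 fold change of 0.65 was the largest in size of the 7 and the least precise (SE 0.254; edgeR adjusted p = 0.0861), a fold of 1.57 with a 95% interval of 1.08 to 2.29. A doubling lies inside this interval and outside those of the other 6 sirtuins, none of which reaches a halving either.

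SIRT5 removes succinyl, malonyl and glutaryl groups from mitochondrial enzymes, and was the member with the smallest difference between groups. It lies on chromosome 6 at 13574529 to 13615158, plus strand (ENSG00000124523). It had 21.9, 25.3 and 23.6 CPM in shACSS2, against 24.7, 24.5 and 23.2 CPM in NS, where shACSS2 held both the lowest and the highest library. The log2 fold change was −0.03 (SE 0.113; edgeR adjusted p = 0.875), a fold of 0.978 (95% interval 0.828 to 1.15).

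In these libraries, genes that carry ATGCTCA or TGCTCAA in the annotated 3′ UTR had a lower median log2 fold change than genes without it, a pattern taken from an earlier search of the same data. SIRT5 was the only sirtuin to carry either 7-base sequence in the sense strand of its longest annotated 3′ UTR (3293 bases), with 2 copies of ATGCTCA. The 6 bases shared by both sequences were not present in the other 6 either. The SIRT5 copies are shown because they set this transcript apart from the rest of the family, with the match in capitals and 9 bases on each side (GENCODE v29 transcript sequence, plus strand, GRCh38).
SIRT5 first copy, chr6:13613629-13613653: ggaacggggATGCTCAtagcctatg
SIRT5 second copy, chr6:13614622-13614646: tcaggagatATGCTCAgcatttgcc
Of 13263 tested genes whose longest 3′ UTR reached 50 bases, 2381 held either sequence, with a median log2 fold change of −0.16, against 0.05 in genes without it. Among the 1727 genes whose 3′ UTR was within 20% of the length of that of SIRT5, 29.8% held it, with a median of −0.15, against −0.01 in genes of that length without it. A match is a description of the annotation, and whether these cells express this form of SIRT5 was not examined.

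Sirtuins differed in GC content and in the place of replicate 1 among the shACSS2 libraries. Transcript GC content was 40.5% in SIRT1, 48.2% in SIRT5, 51.3% in SIRT4, 56.5% in SIRT7, 58.2% in SIRT3, 60.1% in SIRT2 and 64.9% in SIRT6. Replicate 1 was the highest shACSS2 library for SIRT1 and the lowest for SIRT2, SIRT3, SIRT5, SIRT6 and SIRT7. SIRT1 has the lowest GC content of the 7. SIRT5, the next lowest, lies in the middle of 5 equal bins of all genes by GC content (45.9% to 51.8%). The part of GC content in these values was not tested. Without replicate 1, 3 sirtuins rose and 0 fell, against backgrounds of 11.0% higher and 12.5% lower. SIRT2 then stood at 0.33 in log2 (SE 0.0844, adjusted p = 0.00992 by edgeR), SIRT7 at 0.41 (SE 0.119; adjusted p = 0.0199) and SIRT6 at 0.32 (SE 0.107; adjusted p = 0.0379). SIRT1 reached −0.26 (SE 0.0936, edgeR adjusted p = 0.0519), with both remaining shACSS2 libraries below all NS libraries. Groups were then also apart for SIRT2, SIRT3, SIRT4, SIRT6 and SIRT7, with shACSS2 above, and only SIRT5 overlapped. The share of all genes with groups apart was not computed for this omission.

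A correction of every library for GC content, chosen after the data were seen, used all 6 libraries and called 2 sirtuins higher, where it called 27.9% of all genes (13.8% higher). SIRT2 rose by 0.31 on the log2 scale (SE 0.0797; edgeR adjusted p = 0.0106) and SIRT7 by 0.35 (SE 0.104; edgeR adjusted p = 0.02). Both were also past the test with the replicate number as a block beside the correction, where 29.0% of all genes were called (14.8% higher). SIRT6 had an adjusted p of 0.057, SIRT4 one of 0.0625 and SIRT1 one of 0.114 with the correction alone. In the uncorrected fit of all 6 libraries, the median log2 fold change of all genes ran from −0.02 to 0.02 over 5 equal bins of genes by GC content. Without shACSS2 replicate 1 it was −0.11 in the bin of lowest GC, which holds SIRT1, and 0.09 in the bin of highest GC, which holds SIRT2 and SIRT6.

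**Figure D2:**
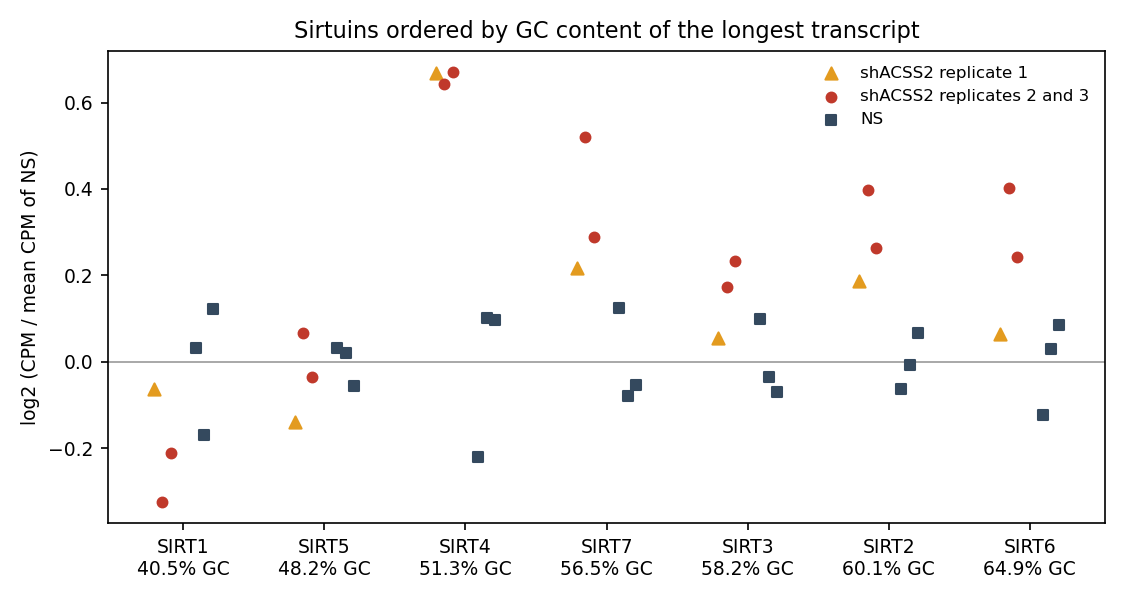
Log2 ratio of the CPM of each library to the mean CPM of NS, with sirtuins placed from low to high GC content of the longest transcript. Orange triangles are shACSS2 replicate 1, red circles shACSS2 replicates 2 and 3, and dark squares NS. The triangle is above the circles for SIRT1 at 40.5% GC and below them for SIRT5 at 48.2% GC and for SIRT7, SIRT3, SIRT2 and SIRT6 at 56.5% GC and above.

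**Figure D3:**
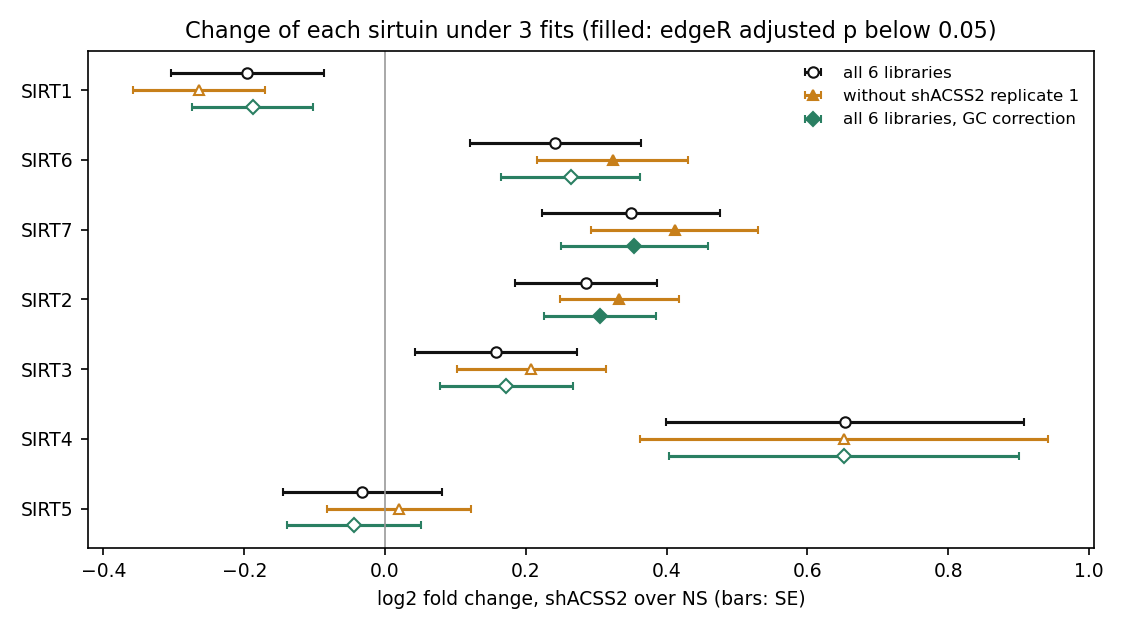
Log2 fold change, shACSS2 over NS, with its SE for each sirtuin in the fit of all 6 libraries (circles), without shACSS2 replicate 1 (triangles) and with a GC correction (diamonds). Filled symbols have an edgeR adjusted p below 0.05: SIRT2, SIRT6 and SIRT7 without replicate 1, and SIRT2 and SIRT7 with the correction.

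Members were compared in level by CPM per kilobase of annotated exon. In shACSS2 the order was SIRT1 at 12.6 ± 1.14, SIRT2 at 9.70 ± 0.726, SIRT6 at 9.65 ± 1.12, SIRT3 at 4.58 ± 0.284, SIRT5 at 3.63 ± 0.261, SIRT7 at 3.56 ± 0.398 and SIRT4 at 2.23 ± 0.0242 CPM per kilobase (SD, n = 3). In NS it was SIRT1 at 14.4 ± 1.46, SIRT6 at 8.16 ± 0.595, SIRT2 at 7.96 ± 0.362, SIRT3 at 4.11 ± 0.256, SIRT5 at 3.71 ± 0.123, SIRT7 at 2.79 ± 0.219 and SIRT4 at 1.41 ± 0.173 CPM per kilobase (SD, n = 3). SIRT2 and SIRT6 overlapped in both groups, and SIRT5 and SIRT7 overlapped in shACSS2. All other neighbours in either order were apart. With the longest transcript as the length, SIRT6 stood first in shACSS2 at 16.4 ± 1.90 CPM per kilobase and overlapped SIRT1 at 13.98 ± 1.27, while SIRT1 stayed first in NS at 16.0 ± 1.62, also overlapping SIRT6.

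The summed level of the family was 45.9 ± 1.50 CPM per kilobase in shACSS2 and 42.5 ± 1.69 in NS (SD, n = 3 each). Shares of that sum need no scaling between libraries. SIRT1 held 24.2% to 31.0% of it in shACSS2 libraries, against 31.2% to 35.3% in NS libraries, so its share was lower in every shACSS2 library. SIRT2 held 20.4% to 22.1% in shACSS2, against 18.02% to 19.3% in NS, and SIRT4 4.64% to 5.04% in shACSS2, against 2.87% to 3.69% in NS. SIRT7 held 7.30% to 8.43% in shACSS2, against 6.07% to 7.20% in NS. Shares of SIRT3, SIRT5 and SIRT6 overlapped between groups. With the longest transcript as the length, those of SIRT5 were apart, at 7.91% to 8.35% in shACSS2 against 8.49% to 9.55% in NS. Shares of a sum depend on each other, so a lower share of SIRT1 raises those of the others. Over all genes tested, 36.3% had groups that did not overlap in CPM. That value is for single genes, and no background was computed for shares of a sum. No test was made of these shares, and 3 against 3 libraries allow no exact permutation p under 0.1.

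**Figure D4:**
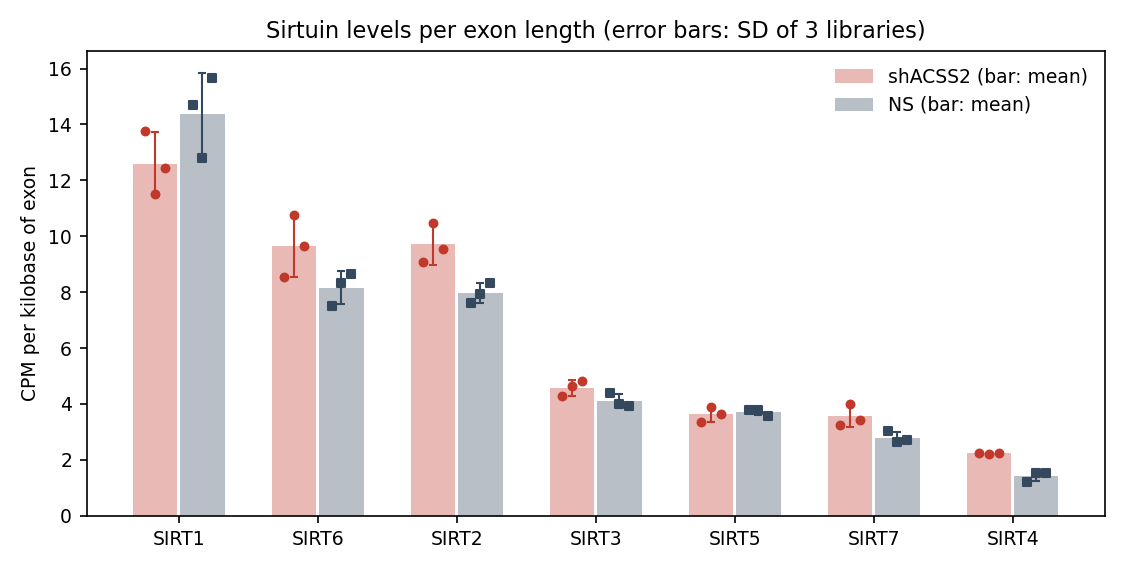
Level of each sirtuin in CPM per kilobase of exon, with red bars and circles for shACSS2 and grey bars and squares for NS. Bars are means, error bars SD of 3 libraries. SIRT1 is highest in both groups, at 12.6 in shACSS2 and 14.4 in NS, and SIRT4 lowest.

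Several sirtuins share exon sequence with another gene, and the use of strand in the counting is not stated, so reads there cannot be assigned with certainty. SIRT3 shares 316 exon bases with PSMD13, a proteasome subunit on the opposite strand. PSMD13 had 151 ± 17.3 CPM in shACSS2 and 129 ± 15.4 CPM in NS (SD, n = 3 each), a difference of 0.23 in log2 (SE 0.111, adjusted p = 0.167 by edgeR). SIRT2 shares 40 bases with NFKBIB, an inhibitor of NF-kappa-B, whose log2 fold change was 0.26 (SE 0.146; edgeR adjusted p = 0.238, and 0.39 with adjusted p = 0.0284 without shACSS2 replicate 1). SIRT7 shares 105 bases with MAFG, a small MAF factor on the same strand, at −0.10 (SE 0.111; edgeR adjusted p = 0.565). The antisense gene AL441883.1 shares 1045 exon bases with SIRT5 and had 0 counts in every library. Of the nearest protein-coding genes that do not overlap a sirtuin, PCYT2 beside SIRT7, an enzyme of phosphatidylethanolamine synthesis, rose to 39.4 ± 4.34 CPM in shACSS2, against 26.5 ± 2.47 CPM in NS (SD, n = 3 each), a difference of 0.57 in log2 (SE 0.119, adjusted p = 0.00468 by edgeR). DNAJC12 and HERC4, on either side of SIRT1, also rose, by 0.50 (edgeR adjusted p = 0.00745) and 0.38 (edgeR adjusted p = 0.0401). The call of DNAJC12 ended without NS replicate 3 (adjusted p = 0.0525). That of HERC4 ended without NS replicate 1, 2 or 3 or shACSS2 replicate 1 (adjusted p 0.157, 0.0823, 0.115 and 0.0596) and with library totals as the scaling (0.0834). ANKRD24 beside SIRT6 lay lower, at 1.60 CPM in shACSS2 against 2.80 CPM in NS, with the groups apart (−0.81 in log2, SE 0.288, edgeR adjusted p = 0.0636). It was past the test with library totals (0.0466) and with a GC correction (0.0381). The other tested nearest genes were not past the test in the main fit, where 17.1% of all genes were called.

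SIRT2, the sirtuin with the smallest p, was compared with 11894 genes averaging at least 5 CPM over the 6 libraries. The 3 most alike in log2 CPM were RPL3, a ribosomal protein (Pearson r = 0.99), PYGL, liver glycogen phosphorylase (r = 0.987), and RPUSD3, a mitochondrial pseudouridine synthase (r = 0.986). A total of 80 genes exceeded an r of 0.95, and since the points share libraries and group the values are a description. RPL3 has many pseudogenes, so its counts are uncertain.

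The other class of lysine deacetylases, the zinc-dependent HDACs, had a median log2 fold change of −0.07. Of 11 members, 1 rose and 2 fell, which is 27.3% called, beside 17.1% of all genes tested (7.48% higher and 9.64% lower). No test was made of the list. HDAC6, the cytoplasmic tubulin deacetylase that shares its substrate with SIRT2, fell to 40.5 ± 7.17 CPM in shACSS2, against 61.2 ± 2.93 CPM in NS (SD, n = 3 each), a difference of −0.60 in log2 (SE 0.123, adjusted p = 0.00479 by edgeR). HDAC1, a class I nuclear enzyme, rose by 0.30 (edgeR adjusted p = 0.0369) and HDAC4 fell by 0.44 on the log2 scale (edgeR adjusted p = 0.0234). The calls of HDAC1 and HDAC4 ended without NS replicate 1 or 3 or shACSS2 replicate 2 or 3, at adjusted p of 0.132, 0.167, 0.0742 and 0.0723 for HDAC1 and of 0.135, 0.0599, 0.062 and 0.0893 for HDAC4. Library totals as the scaling also ended the call of HDAC1 (0.0814). The difference between both classes was not tested.

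Genes listed under NAD synthesis, which include the kinases of NAD+ itself (NADK and NADK2), were called about as often as all genes. Of 17 tested members of NAD synthesis (23 listed), 1 rose and 2 fell, and 14 were not past the test, which is 17.6% called, beside 17.1% of all genes. The median was 0.02, and −0.14 to −0.02 when any 1 library was omitted. HAAO, KMO, TDO2, IDO1, ACMSD and NNMT were too scarce to test, at 0 to 19 counts summed over 6 libraries. PNP, a purine nucleoside phosphorylase that also cleaves nicotinamide riboside, rose to 184 ± 11.9 CPM in shACSS2, against 121 ± 13.2 CPM in NS (SD, n = 3 each), a difference of 0.60 in log2 (SE 0.102, adjusted p = 0.00133 by edgeR). AFMID, the formamidase of the kynurenine pathway, fell to 13.3 ± 1.43 CPM, against 22.6 ± 1.27 CPM in NS (−0.77 in log2, SE 0.127, adjusted p = 0.00108 by edgeR). NADK2, the mitochondrial NAD kinase, fell to 34.6 ± 3.40 CPM, against 50.3 ± 2.02 CPM in NS (−0.54 in log2, SE 0.107, adjusted p = 0.00361 by edgeR). NAMPT, the rate-limiting enzyme of the salvage of nicotinamide, named for its role after its values were seen, had 197, 176 and 176 CPM in shACSS2, against 162, 167 and 174 CPM in NS (log2 fold change 0.12; edgeR adjusted p = 0.376).

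Of 14 tested enzymes that compete with sirtuins for NAD+ (19 listed), 1 rose and 3 fell, 10 were not past the test, and the list had a median of −0.14. That is 28.6% called, beside 17.1% of all genes (7.48% higher and 9.64% lower), and no test was made of the list. SARM1, the NAD+ hydrolase of axon degeneration, fell to 15.9 ± 2.17 CPM in shACSS2, against 33.8 ± 1.88 CPM in NS (SD, n = 3 each), a difference of −1.09 in log2 (SE 0.124, adjusted p = 5.91e-05 by edgeR). TIPARP, a mono-ADP-ribosyltransferase, rose to 36.5 ± 3.25 CPM, against 24.4 ± 1.07 CPM in NS (0.58 in log2, SE 0.111, adjusted p = 0.00312 by edgeR). PARP6 and TNKS fell by 0.36 and 0.33 on the log2 scale (edgeR adjusted p = 0.0366 and 0.0283). Their calls ended in 3 and 5 of the 6 omissions of a library: PARP6 without NS replicate 1 or 3 or shACSS2 replicate 2 (adjusted p 0.1 to 0.14), TNKS in all but that of shACSS2 replicate 1 (0.0514 to 0.125). Only SARM1 and TIPARP were left when NS replicate 1 or 3, or shACSS2 replicate 2, was omitted. CD38, PARP12, PARP14, PARP15 and BST1 were too scarce to test, at 0 to 43 counts summed over 6 libraries.

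Of 20 regulators and partners of sirtuins, 3 rose and 1 fell, 16 were not past the test, and the list had a median of 0.09. These 4 calls among 20 genes are a share close to the 17.1% of all genes. NFE2L2, which encodes the antioxidant factor NRF2, fell to 23.1 ± 1.81 CPM in shACSS2, against 39.03 ± 3.00 CPM in NS (SD, n = 3 each), a difference of −0.76 in log2 (SE 0.113, adjusted p = 0.000514 by edgeR). RPS19BP1 encodes AROS, an activator of SIRT1, E2F1 induces SIRT1 after DNA damage, and SUV39H1 is a histone methyltransferase that SIRT1 deacetylates. They rose by 0.37, 0.44 and 0.41 (edgeR adjusted p = 0.0445, 0.0195 and 0.016). The call of RPS19BP1 ended in 5 omissions (all but NS replicate 2; adjusted p 0.0531 to 0.226) and with library totals (0.0806). That of E2F1 ended in 4, without NS replicate 1 or 3 or shACSS2 replicate 2 or 3 (0.0655 to 0.0955), and that of SUV39H1 in 3, without NS replicate 1 or 3 or shACSS2 replicate 3 (0.0659 to 0.0844). The list's count was 1 without NS replicate 1 or 3 or shACSS2 replicate 3, and 2 without shACSS2 replicate 2. CCAR2, the inhibitor of SIRT1 also called DBC1, named for its role after its values were seen, differed by 0.03 in log2 (adjusted p = 0.869 by edgeR).

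Of 35 tested substrates (37 listed), 1 rose and 6 fell, 28 were not past the test, and the list had a median of −0.05 (−0.04 without ACSS2). These 7 calls among 35 genes are a share close to the 17.1% of all genes. ACSS2, the target of the hairpin, is 1 of the 6 that fell, and the gene that rose is SUV39H1, counted among the regulators too. HIF1A, the hypoxia factor, fell to 54.4 ± 4.60 CPM in shACSS2, against 85.4 ± 4.71 CPM in NS (SD, n = 3 each), a difference of −0.65 in log2 (SE 0.101, adjusted p = 0.000659 by edgeR). EP300, the acetyltransferase p300, fell to 105 ± 1.07 CPM, against 151 ± 13.3 CPM in NS (−0.52 in log2, SE 0.0958, adjusted p = 0.00224 by edgeR). PER2, a clock protein, fell to 6.21 ± 0.184 CPM, against 10.4 ± 1.79 CPM in NS (−0.74 in log2, SE 0.167, adjusted p = 0.00754 by edgeR). ACSS1, the target of SIRT3, differed by −0.17 in log2 (adjusted p = 0.311 by edgeR). Of the 12 named list genes that fell, 5 hold ATGCTCA or TGCTCAA in the 3′ UTR (AFMID, NADK2, SARM1, HIF1A and PER2), as does 1 of the 6 that rose (E2F1), and the part of this sequence in their fall was not tested.

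**Figure D5:**
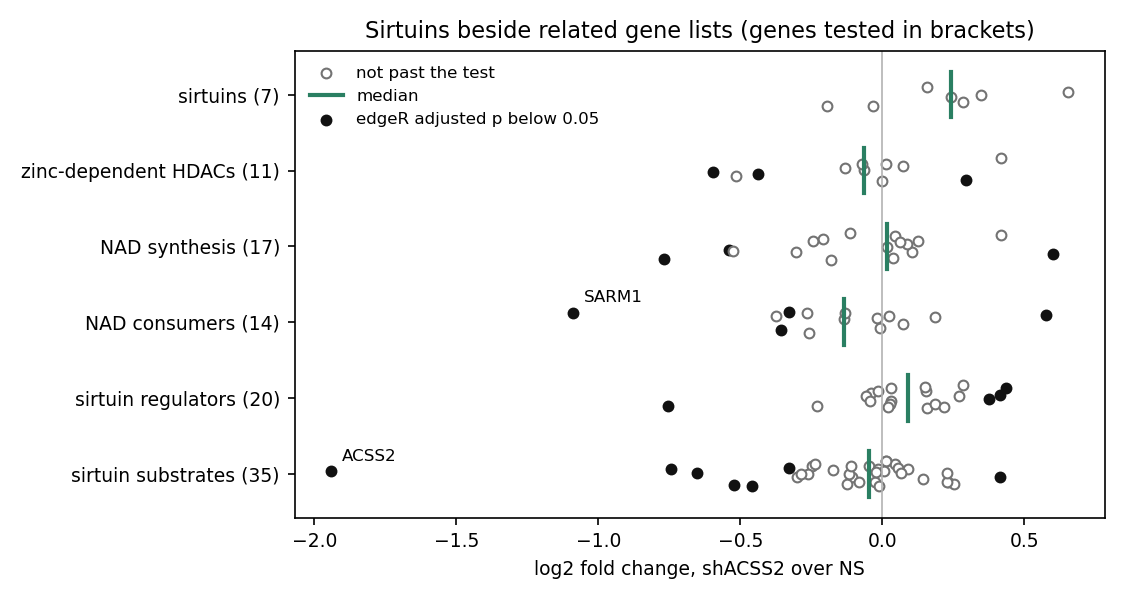
Log2 fold change, shACSS2 over NS, of the tested members of each list, with filled points past the edgeR test, open points not past it and green bars at the medians. All 7 sirtuins are open points with a median of 0.24, and the other lists hold 3 to 7 filled points each, SARM1 and ACSS2 farthest to the left.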

How the data were processed

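RNA sequencing of 6 libraries was used. The authors deposited raw read counts for each gene, with no normalisation. The submitters' processing notes name HISAT2 2.0.5 and featureCounts 1.5.0-p3, beside fastp and DESeq2, with the build hg19. All 58735 gene IDs were found in GENCODE v29, an annotation of GRCh38, from which positions, exon and transcript lengths, GC content and 3′ UTRs were taken by ID, and which build the reads were aligned to cannot be told from these. Neither the strand setting nor the handling of multi-mapping reads is stated, and either can shift counts of overlapping genes and of genes with pseudogenes.

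Counts were scaled by TMM factors (0.968 to 1.04) and filtered by group with edgeR's default. They were tested over 16210 genes with edgeR 4.0.16 in R 4.3.3 (robust quasi-likelihood F test, group as the only term). Benjamini-Hochberg adjustment was used at 0.05. The fit was also run on simulated counts, drawn with the same dispersion for every gene and no GC effect. That run does not cover the GC pattern of shACSS2 replicate 1. The SE was taken from the log2 fold change and its F statistic, and 95% intervals use its degrees of freedom. "Rose" and "fell" mean past this test. Intervals and floors cover these libraries and counting error only. Libraries of a group differed by more than sampling noise (chi-square per degree of freedom 4.28 to 17.3). The GC correction subtracted, per library, a loess curve (span 0.3) of the deviation from the mean log count on the GC content of the longest transcript.

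The members and lists were chosen with earlier results of these data known. Named are the sirtuins, ACSS2, overlapping and nearest protein-coding genes, the 4 most changed called members per list (or fewer) whose mean reaches 1 CPM, and the 3 genes most like the sirtuin of smallest p. Not every neighbour is described, and 1 cell type marker is not reported here. A second feature named SOD2, with 0 to 2 counts a library, was left out. Alternatives were scaling by RLE, upper quartiles or library totals, no filter or 1 CPM in 3 libraries, DESeq2 1.42.0, voom in limma 3.58.1, the replicate block, a threshold of 0.01, leaving out the mitochondrial genome or each library, and the GC correction, which was chosen after seeing the data. Figures used matplotlib 3.10.9 in Python 3.11.15.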

Additional observations from a re-analysis of the deposited data

How the results depend on the processing

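All 7 sirtuins kept the sign of their log2 fold change under every alternative run, with 1 exception: SIRT5 was at 0.0199 without shACSS2 replicate 1. Calls of sirtuins numbered 0 in the main fit and 0 to 3 on omission of 1 library, 1 with DESeq2 and 2 with the GC correction, alone or with the replicate block; every other scaling, filter and tool gave 0. SIRT2 was past the test with DESeq2 (0.29, adjusted p = 0.0465), with the GC correction (0.31) and with both correction and block (0.30, adjusted p = 0.0137), and ranged from 0.23 to 0.33 on omission of a library. SIRT7 was past it with the correction (0.35) and with correction and block (0.35, adjusted p = 0.0217), and ranged from 0.26 to 0.41. The ranges were 0.16 to 0.32 for SIRT6 and −0.0822 to 0.0199 for SIRT5.

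Deviations of same-numbered libraries from their group means had a Pearson r of −0.04, −0.07 and 0.11, and not every library correlated best with its own number. The labels state no pairing, and whether same-numbered libraries share a batch was not tested. The replicate block gave 2923 called genes against 2776 without it, and called 0 sirtuins. Called genes numbered 1010 at an adjusted p of 0.01, 4515 with the GC correction, 4707 with correction and block, and 1018 to 3931 on omission of a library. Without NS replicate 1 or 3 they were 1018 and 1151. With library totals 734 were higher and 2108 lower, against 1213 and 1563 with TMM factors.

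For NAD synthesis the median was −0.14 to −0.0191 on omission of a library. For NAD consumers the count was 2 at an adjusted p of 0.01 and 2 to 5 on omission, and the median −0.21 with library totals. For sirtuin regulators the count was 1 at 0.01 and 1 to 4 on omission, and the median 0.0176 with library totals and 0.0372 to 0.126 on omission. For substrates the count was 13 with the GC correction, with and without the block, and the median −0.12 with library totals. For zinc-dependent HDACs the count was 1 at 0.01 and 1 to 3 on omission. With the longest transcript as length, ranks in shACSS2 were 1 for SIRT6, 2 for SIRT1, 3 for SIRT2, 5 for SIRT7 and 6 for SIRT5, and ranks of SIRT2 and SIRT6 ran from 2 to 3 on omission of a library.

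Over the 35 other named genes, 629 values under alternatives held 557 with the same direction and side of the threshold, 50 no longer past it, 11 newly past it and 11 of the other sign. Among uncalled neighbours, signs changed for NLRP6 (−0.0341 with voom, and −0.42 to 0.38 on omission), NOL7 (−0.0438 with library totals, and −0.0239 to 0.0769), PXN (−0.19 to 0.00818), RINL (−0.11 to 0.51) and RIC8A (0.00363 with the correction and 0.00036 with correction and block). For these values, and for all others given here, the cause was not tested. SIRT4 had 26 to 49 counts a library.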
